A study of Mus musculus with 12 samples.

Results

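Messenger RNA levels of 39 genes of the heat shock response and of the unfolded protein response were followed in astrocytes sorted from the mouse hippocampus. The genes were chosen by name from 56941 genes in the deposited table, with earlier results of these data known. By role they comprised 16 cytosolic and nuclear heat shock proteins and co-chaperones, 3 mitochondrial chaperones, 9 chaperones and folding enzymes of the endoplasmic reticulum (ER), 2 genes of ER-associated degradation, 7 stress sensors and transcription factors, and 2 targets of the ER kinase PERK. Of the 39, 37 had a mean of at least 1 FPKM (a read level per gene length and per library total) and entered the genotype test, and Trib3 and Chac1 did not.

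The cells came from adult naive male mice and were sorted by fluorescence for ACSA-2, a surface antigen of astrocytes. The study compared the genotype Tnfrsf1bfl/fl, labelled Ctrl, with GfapcreERT2:Tnfrsf1bfl/fl, labelled cKO. Both genotypes therefore carry the floxed gene for TNFR2, a receptor of tumour necrosis factor, and the cKO mice also carry Cre recombinase fused to a modified oestrogen receptor and driven by the Gfap promoter. Such a Cre acts after tamoxifen and in cells in which the Gfap promoter is active, and the labels state neither the tamoxifen schedule nor the share of recombined cells. Of 12 libraries, 6 were Ctrl (A1, A2 and A8) and 6 were cKO (A4, A9 and A10), each A number being present as S1 and as S2. The labels define neither letter and do not say that the A numbers are separate animals. S1 and S2 were averaged, each A number was counted as 1 unit (n = 3 units per genotype), and p-values measure the spread between these units, which may be technical.

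Cytosolic heat shock genes are switched on by the transcription factor HSF1 when unfolded proteins accumulate in the cytosol, and their promoters carry heat shock elements, inverted repeats of GAA units. Unfolded protein in the ER is sensed by 3 membrane proteins, IRE1 (encoded by Ern1), PERK (Eif2ak3) and ATF6. IRE1 splices the messenger of Xbp1, PERK raises translation of Atf4, and ATF6 is cleaved to a transcription factor, and together they raise ER chaperones, folding enzymes and degradation genes. In brain tissue, heat shock genes are also known to respond to the dissociation and sorting of cells.

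The 2 classes carried different promoter motifs. RefSeq start regions on GRCm38.p6, from 250 bases before to 50 bases after each start, were matched by symbol for 32 of the 39 genes and not for Hspa8, Hsp90aa1, Hsp90ab1, Cryab, Hspa9, Hsf1 and Atf6. A heat shock element of 2 units, GAANNTTC, was found on either strand in 8 of the 12 matched cytosolic genes, in both matched mitochondrial genes and in 0 of the 9 ER genes, against 7.86% of 32851 windows of the same length. A longer element of 3 units was GAANNTTC followed by GAA after a gap of 2 bases. Every match of it contains a match of the shorter one. It was found in Hsph1, Hspd1 and Hspe1, against 0.603% of windows. Hspd1 and Hspe1 are neighbours on opposite strands. For both elements their matches are the same bases, counted once for each gene. The ER stress element, CCAAT followed by CCACG after a gap of 9 bases, was found in 6 of the 9 ER genes and in 0 of the 12 cytosolic genes, against 0.119% of windows. The related ER stress element II, ATTGG followed by CCACG after a gap of 1 base, was found in Herpud1 and in 0.0365% of windows. A match of TGACGTGG, an XBP1-type element, was found in 0 of the matched members and in 0.676% of windows. The C/EBP-ATF element TGATGNAA, which ATF4 can bind, was found in Herpud1, Chac1 and Trib3, against 3.97% of windows. A match describes these letters in this window and does not show binding.

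The stretches below are shown because they set the heat shock type of promoter beside the ER type. They run 5′ to 3′ on the gene's strand, and capitals mark the motif on either strand, a heat shock element in the first 4, an ER stress element in the next 6 and an ER stress element II in Herpud1. The Hspa1a and Hspa1b stretches (chr17:34972233-34972280 and chr17:34959315-34959362, both on the minus strand) lie from −124 to −77 relative to the start. Hspb1 (chr5:135887782-135887849, plus strand) has 2 elements, and in Hspe1 (chr1:55088039-55088096, plus strand) the capitals cover 2 overlapping matches of the longer one. The ER stretches lie at chr2:34772005-34772063 on the plus strand (Hspa5), chr10:86705513-86705676 on the minus strand (Hsp90b1, with 2 elements), chr8:84847055-84847113 on the minus strand (Calr), chr11:50325780-50325838 on the minus strand (Canx), chr12:17266471-17266529 on the plus strand (Pdia6), chr14:118937807-118937865 on the plus strand (Dnajc3) and chr8:94386357-94386407 on the plus strand (Herpud1).
Hspa1a: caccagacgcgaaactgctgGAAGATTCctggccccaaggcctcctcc
Hspa1b: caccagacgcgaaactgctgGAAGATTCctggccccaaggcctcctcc
Hspb1: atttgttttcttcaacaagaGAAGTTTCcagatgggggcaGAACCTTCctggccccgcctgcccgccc
Hspe1: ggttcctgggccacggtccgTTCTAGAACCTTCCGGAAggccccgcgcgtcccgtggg
Hspa5: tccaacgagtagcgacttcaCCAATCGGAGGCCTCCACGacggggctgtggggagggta
Hsp90b1: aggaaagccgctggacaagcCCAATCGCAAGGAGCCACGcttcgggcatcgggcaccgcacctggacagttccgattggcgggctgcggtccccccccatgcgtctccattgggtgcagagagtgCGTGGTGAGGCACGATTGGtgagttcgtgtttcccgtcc
Calr: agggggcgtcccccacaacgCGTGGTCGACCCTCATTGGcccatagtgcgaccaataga
Canx: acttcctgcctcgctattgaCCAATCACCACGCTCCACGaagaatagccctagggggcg
Pdia6: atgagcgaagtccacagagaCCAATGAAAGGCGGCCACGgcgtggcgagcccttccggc
Dnajc3: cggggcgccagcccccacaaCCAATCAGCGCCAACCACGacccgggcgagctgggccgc
Herpud1: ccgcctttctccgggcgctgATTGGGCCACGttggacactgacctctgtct

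**Figure D1:**
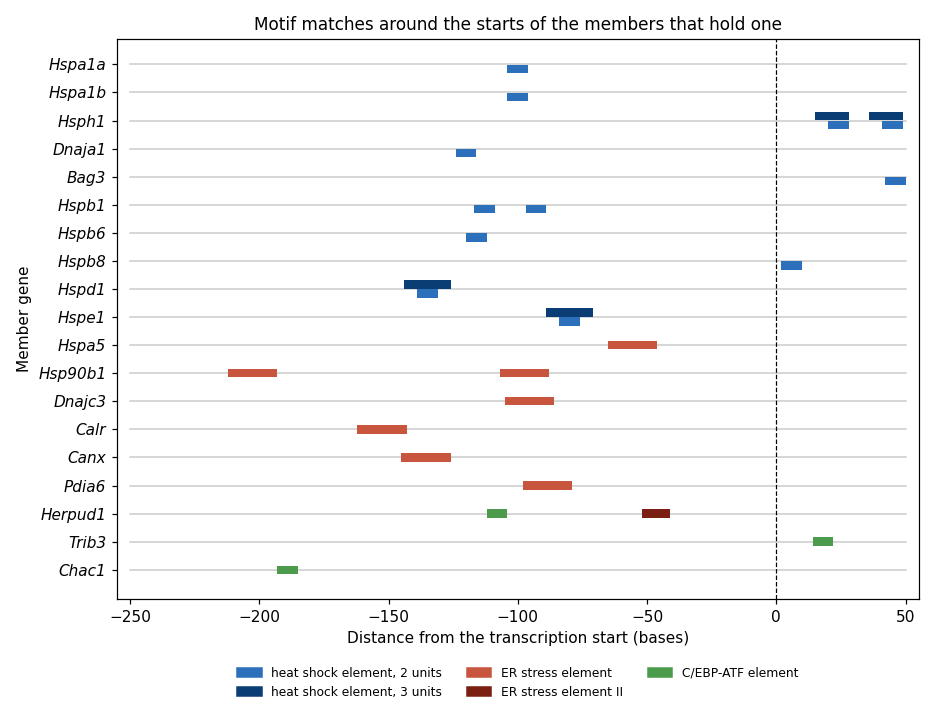
Position of each motif match, as distance in bases from the annotated start (dashed line), for the 19 members that hold one; colours mark the motif and each grey line spans the window from 250 bases before to 50 after the start. Heat shock elements sit in cytosolic and mitochondrial members, and ER stress elements in ER members and Herpud1.

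The recovered totals of assigned reads were 17311872 to 35323325 per library. Astrocyte markers were abundant, with Slc1a2, a glutamate transporter, at 1498 to 1992 FPKM in the 6 units. The targeted gene was near 0 FPKM in every unit, too low to check the labels, and most of its reads fell in a unit labelled cKO. Tnfrsf1b was listed at 10 and 22 reads in the A4 libraries labelled cKO, at 4 reads in 1 A1 library labelled Ctrl, and at 0 in the other 9, so the genotypes below are those of the labels. In the fit of all 17586 tested genes with limma, 0 genes had an adjusted p under 0.05 (0.0% of genes), and 1352 (7.69%) had an unadjusted p under 0.05. The Ctrl unit A8 stood apart on the first principal component, at 75.7 against −43.3 to 17.7 for the other 5 units, and genotype estimates are therefore given with and without A8. On the second component A8 lay at 38.3, beside A1 and A2 (20.2 and 35.2), with the cKO units at −48.6 to −18.5. The A8 libraries had 21342 and 21572 genes above 0, against 23669 to 26668 in the other libraries. The cause of the distance of A8 was not tested. Markers of other cell types were also present. The oligodendrocyte list was lower in the libraries labelled cKO for 12 of 12 markers (summed level 1096 to 2354 FPKM in Ctrl and 313 to 753 in cKO), and in bulk samples fewer cells of a type and less RNA per cell cannot be told apart.

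The cytosolic class was the most abundant of the classes in 5 of the 6 units, and its level was set by the HSP90 and HSC70 messages. Hsp90ab1, the constitutive cytosolic HSP90, made up 26.4% of the class's FPKM, its stress-responsive partner Hsp90aa1 21.7%, and Hspa8, the constitutive HSC70, 17.2%. The 16 genes summed to 909.9 FPKM in A1, 1053 in A2 and 617.0 in A8, and to 656 in A4, 538.0 in A9 and 677 in A10. The Ctrl units A1 and A2 were high, whereas A8 lay within the range of the cKO units. The group means were 859.9 ± 222 FPKM in Ctrl and 624 ± 75.004 in cKO (SD, n = 3 units). S1 and S2 of a unit differed in these genes by a median of 0.063 on the log2 scale, against 0.089 over all tested genes. The median SD between Ctrl units, which is a different measure, was 0.48, against 0.33 over all tested genes.

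Within the class, the spread between Ctrl units was widest in the stress-inducible genes Hspa1a, Hspb1, Dnajb1 and Hspa1b. Hspa1a, an inducible HSP70, stood at 15.9, 14.7 and 1.23 FPKM in A1, A2 and A8, and at 6.98, 3.88 and 6.58 FPKM in A4, A9 and A10. Hspa1b, its near-identical neighbour on chromosome 17, stood at 17.5, 23.6 and 6.91 FPKM in Ctrl and at 11.02, 8.97 and 10.2 FPKM in cKO. In both genes A1 and A2 were the highest units and A8 the lowest, so the cKO units lay between the Ctrl units. The reads of these 2 genes were whole within 0.02 of a read in 3 of 12 libraries for Hspa1a and in 7 of 12 for Hspa1b, and fractional in the rest, so the split between them is uncertain. Dnajb1, the HSP40 that loads clients onto HSP70, stood at 22.5, 30.5 and 6.20 FPKM in Ctrl and at 10.1, 8.85 and 10.8 FPKM in cKO. Hspb1, the small heat shock protein HSP27, stood at 12.9, 7.09 and 0.771 FPKM in Ctrl and at 4.17, 2.21 and 1.47 FPKM in cKO. Both followed the same order, with A8 below every cKO unit. The SD between Ctrl units on the log2 scale was 1.66 for Hspa1a, 1.55 for Hspb1, 1.13 for Dnajb1 and 0.85 for Hspa1b, against a median of 0.33 over all tested genes.

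In the HSP90 genes A1 and A2 were again the highest units, with a smaller range, and A9 was the lowest. Hsp90aa1 stood at 243.7, 237.6 and 110.4 FPKM in A1, A2 and A8 and at 138.1, 88.2 and 148.2 FPKM in A4, A9 and A10. Hsp90ab1 stood at 244.7, 275.0 and 156.4 FPKM in Ctrl and at 170.9, 148.3 and 180.5 FPKM in cKO. A8 lay inside the cKO range for both. Hsph1, the HSP110 nucleotide exchange factor of HSP70, repeated this with 22.2, 22.9 and 12.2 FPKM in Ctrl and 14.4, 11.9 and 15.6 FPKM in cKO. The constitutive Hspa8 differed less between units, at 126.6, 144.8 and 139.7 FPKM in Ctrl and 129.8, 113.7 and 109.7 FPKM in cKO, and A8 was not low. Hspa2, an HSP70 that was the fourth most abundant of the class, ranged from 51.4 to 91.4 FPKM with overlapping groups. A wide spread and a heat shock element did not go together in every gene. Dnajb1, one of the genes with the widest spread, had no match of the element in its window. Bag3, a co-chaperone of selective autophagy, holds such an element in its window. It had the smallest SD of the class between Ctrl units (0.070 on the log2 scale) and stood at 10.5 to 14.3 FPKM over the 6 units.

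**Figure D2:**
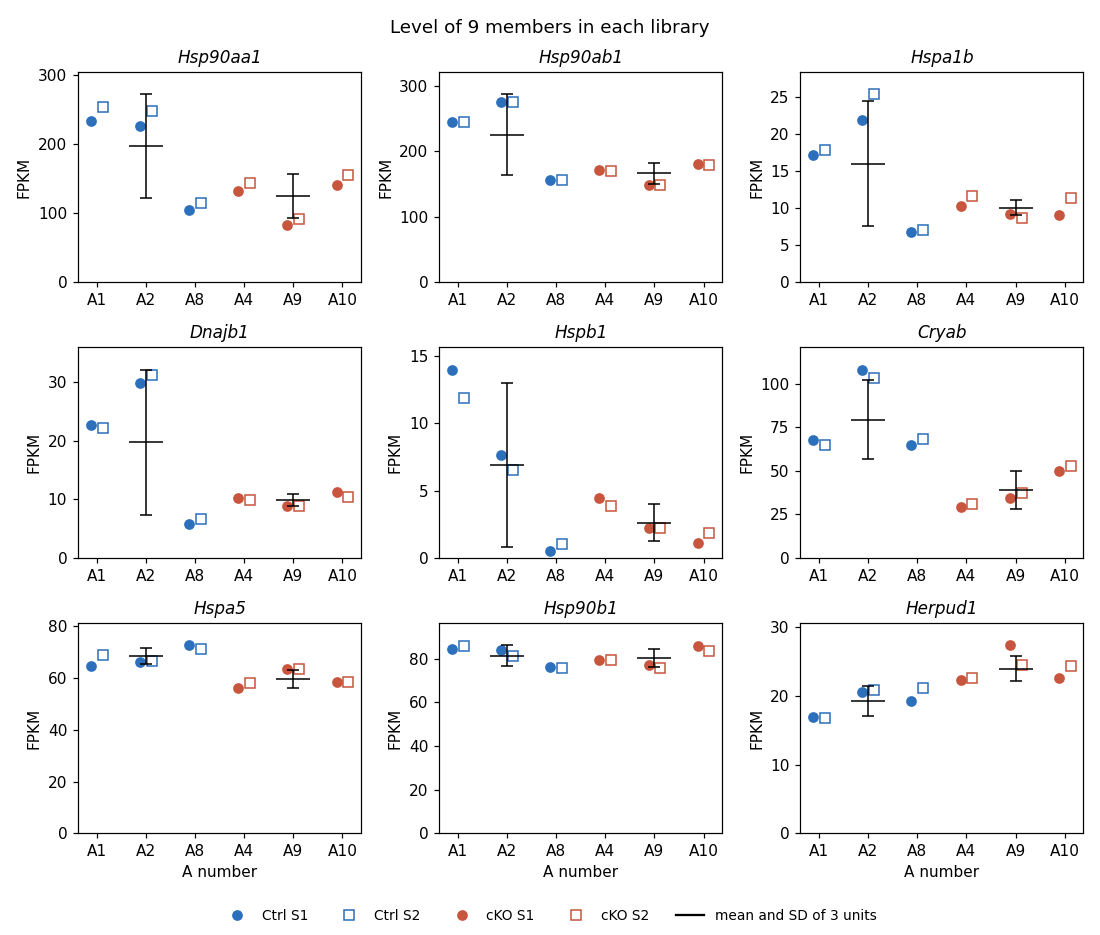
FPKM of 9 members in each library by A number, with S1 as filled circles, S2 as open squares, Ctrl in blue, cKO in red, and bars for the mean and SD of 3 units. In Hsp90aa1, Hsp90ab1, Hspa1b, Dnajb1 and Hspb1 the A8 libraries sit apart from A1 and A2, while Hspa5 and Hsp90b1 differ little between units.

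With all 6 units, no cytosolic gene passed the genotype test. In limma 0 of the 16 had an adjusted p under 0.05, 1 (Cryab, lower) had an unadjusted p under 0.05, and 0 were higher, against 4.71% of all tested genes lower and 2.97% higher at the same unadjusted threshold. The estimate for cKO against Ctrl was below 0 in 15 of 16 genes, Hspb8 being the exception, with a median of −0.27 on the log2 scale, whereas 50.9% of all tested genes were below 0, with a median of −0.0067. The log2 fold change was −0.60 ± 0.35 for Hsp90aa1, −0.40 ± 0.22 for Hsp90ab1, −0.68 ± 0.51 for Dnajb1 and −0.33 ± 0.76 for Hspa1a (SE, n = 3 units), with limma adjusted p of 0.773, 0.762, 0.852 and 0.968. Each of these differences was smaller than the range of the Ctrl units. Most genes of the class were high in the same units, A1 and A2, so the genes are not independent observations. The size of the estimates depended on single units. With each unit left out in turn they ran from −0.26 (without A2) to −1.32 (without A8) for Dnajb1, from −0.13 (without A2) to −0.95 (without A8) for Hspa1b, from −0.13 (without A1) to −1.63 (without A8) for Hspb1, from −0.37 (without A9) to −0.98 (without A8) for Hsp90aa1 and from −0.24 (without A2) to −0.64 (without A8) for Hsp90ab1.

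Without A8 the Ctrl group held only A1 and A2. In that fit 13 of the 16 cytosolic estimates were larger in size, those of Hspa8, Dnajb4 and Hspb8 were smaller, and 0 passed the adjusted threshold. The class median became −0.57, and 9 of 16 genes were lower at an unadjusted p under 0.05, against 8.54% of all tested genes, with 0 of 16 higher (5.35% of all tested genes). The 9 were Dnajb1, Hspa1b, Hsp90ab1, Hspa1a, Hsph1, Hsp90aa1, Hspb1, Cryab and Hspa4, an HSP110-type chaperone. For Dnajb1, Hspa1b, Hspb1, Hsp90aa1 and Hsp90ab1 the limma adjusted p without A8 was 0.129, 0.135, 0.201, 0.194 and 0.146. Hspa1a had −1.28 without A8 with an adjusted p of 0.149, but 0.18 without A1 and 0.12 without A2. The unit ranges of 11 of 16 cytosolic genes lay lower in cKO without overlap and those of 0 higher, against 19.6% and 13.7% of all tested genes (33.4% in either direction). A8 was the lowest Ctrl unit for 12 of 16 cytosolic genes and for 42.9% of all tested genes. Leaving out the lowest Ctrl unit raises the Ctrl mean, so the larger estimates and counts without A8 follow in part from that choice. They are no added support for a difference.

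Another list of genes was high in the same units. The 17 immediate-early and dissociation response genes had a mean log2(FPKM + 1) of 5.37 in A1, 5.40 in A2 and 3.52 in A8, and of 4.31 in A4, 3.33 in A9 and 4.23 in A10. Their most abundant gene, Fos, stood at 403, 494 and 120 FPKM in Ctrl and at 206, 86.4 and 192 FPKM in cKO. All 17 estimates were below 0, with summed levels of 363 to 1317 FPKM in Ctrl and 267 to 641 FPKM in cKO. When the list's level was added to the limma fit, the log2 fold change was 0.02 for Dnajb1, 0.06 for Hspa1b, 0.17 for Hspb1 and 0.78 for Hspa1a, the last with an adjusted p of 0.391. In the same fit it was −0.10 for Hsp90aa1, −0.11 for Hsp90ab1, −0.043 for Hsph1, −0.22 for Hspa8 and −0.87 for Cryab (limma adjusted p of 0.384 for Cryab). Endothelial markers (8 genes, 0 of them at 0 in every library) had a mean log2 level of 2.83, 2.42 and 0.607 in Ctrl. In cKO they stood at 2.54, 0.875 and 0.770, with A4 above A2. Ependymal markers (6 genes, 0 of them at 0 in every library) stood at 5.03, 4.84 and 3.30 in Ctrl and 4.09, 3.12 and 4.47 in cKO. Other lists had a higher mean in cKO: astrocyte (8.06 in Ctrl and 8.23 in cKO), mural cell (3.22 and 3.41), microglia (0.832 and 1.16) and erythrocyte (0.129 and 0.326). Oligodendrocyte precursor markers (2.94 and 2.27) and neuron markers (1.035 and 0.741) had a lower mean in cKO. The part of these lists in the cytosolic differences was not tested.

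**Figure D3:**
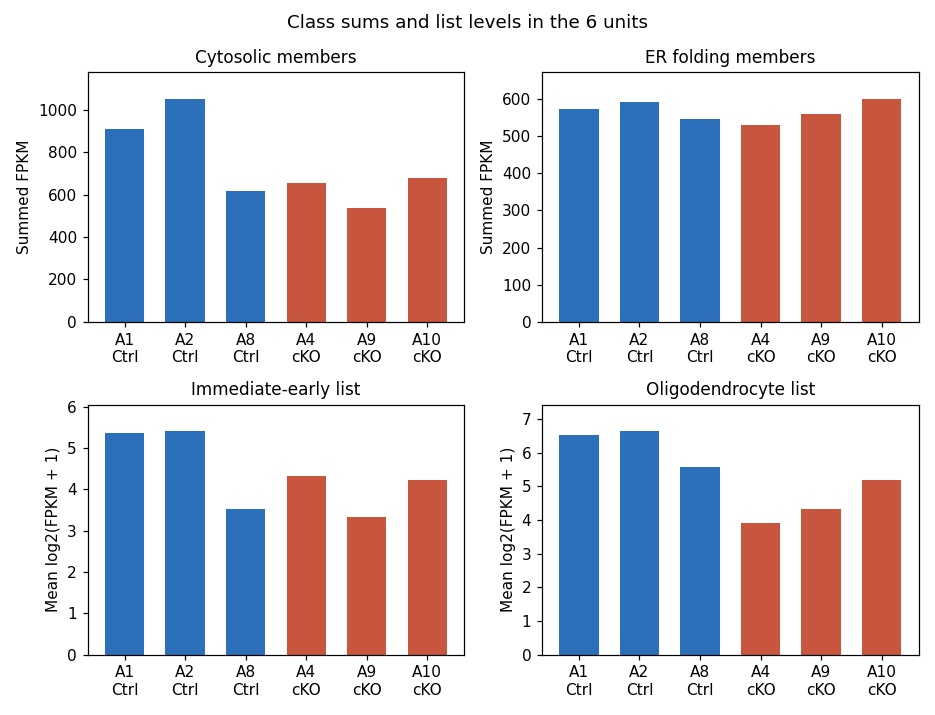
Summed FPKM of the cytosolic and ER folding members (upper panels) and mean log2(FPKM + 1) of the immediate-early and oligodendrocyte lists (lower panels) in the 6 units, Ctrl in blue and cKO in red; each bar is 1 unit. The cytosolic sum and the immediate-early level are highest in A1 and A2, and the ER sum lies between 530.2 and 600.5 FPKM in all 6 units.

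Cryab differed from most of its class in which units were high. αB-crystallin, which it encodes, is a small heat shock protein that is abundant in oligodendrocytes and also made by astrocytes. In the deposited coordinates Cryab (ENSMUSG00000032060) lies on chromosome 9 from 50662625 to 50667936. It stood at 66.3, 105.5 and 66.6 FPKM in A1, A2 and A8 and at 30.2, 35.9 and 51.3 FPKM in A4, A9 and A10. All 3 Ctrl units lay above all 3 cKO units, which held for no other cytosolic gene. A8 was not the lowest Ctrl unit, as also in Hspa8, Dnajb4 and Hspb8. The log2 fold change was −1.004 ± 0.25 (SE) with a limma adjusted p of 0.389, and −1.11 without A8 with an adjusted p of 0.216. The oligodendrocyte markers separated the units in the same direction, with a mean log2 level of 6.54, 6.63 and 5.57 in Ctrl and 3.90, 4.32 and 5.20 in cKO. With the level of that list in the fit, the estimate for Cryab was −0.15 (limma unadjusted p = 0.69). Since the list's level does not overlap between the labels, its part and that of the genotype cannot be told apart. The other small heat shock proteins had overlapping groups, Hspb8 at 8.502 to 16.9 FPKM and Hspb6 at 2.02 to 6.68 FPKM.

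The ER chaperones and folding enzymes were nearly level across the units. Their 9 genes summed to 572.0, 591.8 and 547.0 FPKM in A1, A2 and A8, and to 530.2, 559.3 and 600.5 FPKM in A4, A9 and A10, or 570.3 ± 22.5 in Ctrl and 563 ± 35.3 in cKO (SD, n = 3 units). The median SD between Ctrl units was 0.17 on the log2 scale. Canx, encoding the membrane lectin chaperone calnexin, was the most abundant, at 110.7, 128.3 and 100.9 FPKM in Ctrl and 103.5, 110.9 and 112.8 FPKM in cKO. Hsp90b1, the ER HSP90 called GRP94, stood at 85.2, 82.7 and 76.0 FPKM in Ctrl and at 79.5, 76.5 and 84.8 FPKM in cKO, with a log2 fold change of −0.018 ± 0.10 (SE), and −0.065 without A8. Canx had −0.048, and −0.13 without A8. Neither gene separated the groups, and the reads of Hsp90b1 were whole in 0 of 12 libraries, so some were shared with another annotated gene. The lectin chaperone Calr ranged from 67.6 to 87.4 FPKM and the disulfide isomerase Pdia3 from 69.4 to 82.8 FPKM over the 6 units.

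In the limma fit 0 of the 9 ER genes had an adjusted p under 0.05, and 0 had an unadjusted p under 0.05 in either direction. Their median estimate was −0.018 with all units (6 of 9 below 0) and −0.080 without A8 (7 of 9 below 0), and without A8 Dnajb9 was higher at an unadjusted p under 0.05. The unit ranges did not overlap for 3 members lower in cKO (Cryab, Hspa5 and Atf6, against 7.22% of all tested genes) and 2 members higher in cKO (Dnajb9 and Herpud1, against 5.75%), and 13.0% of all tested genes did not overlap in either direction. Hspa5, which encodes the master ER chaperone BiP and lies on chromosome 2 from 34661982 to 34667559, stood at 66.9, 66.4 and 72.0 FPKM in Ctrl and at 57.2, 63.5 and 58.5 FPKM in cKO. The gap between the groups was narrow, and A8 was the highest unit. Its log2 fold change was −0.19 ± 0.10 (SE), with a limma adjusted p of 0.741, and −0.16 without A8. Dnajb9, encoding the BiP co-chaperone ERdj4, stood at 32.6, 41.2 and 45.95 FPKM in Ctrl and at 46.2, 51.8 and 47.7 FPKM in cKO, so that A8 and A4 nearly met. Its log2 fold change was 0.29 ± 0.15 (SE), with a limma adjusted p of 0.732. It was 0.39 without A8, 0.15 without A1, 0.16 with the immediate-early level in the fit and 0.071 with the oligodendrocyte level in the fit. Pdia4, a disulfide isomerase, was highest in A10 (69.8 FPKM, against 40.3 to 55.6 in the other 5 units).

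**Figure D4:**
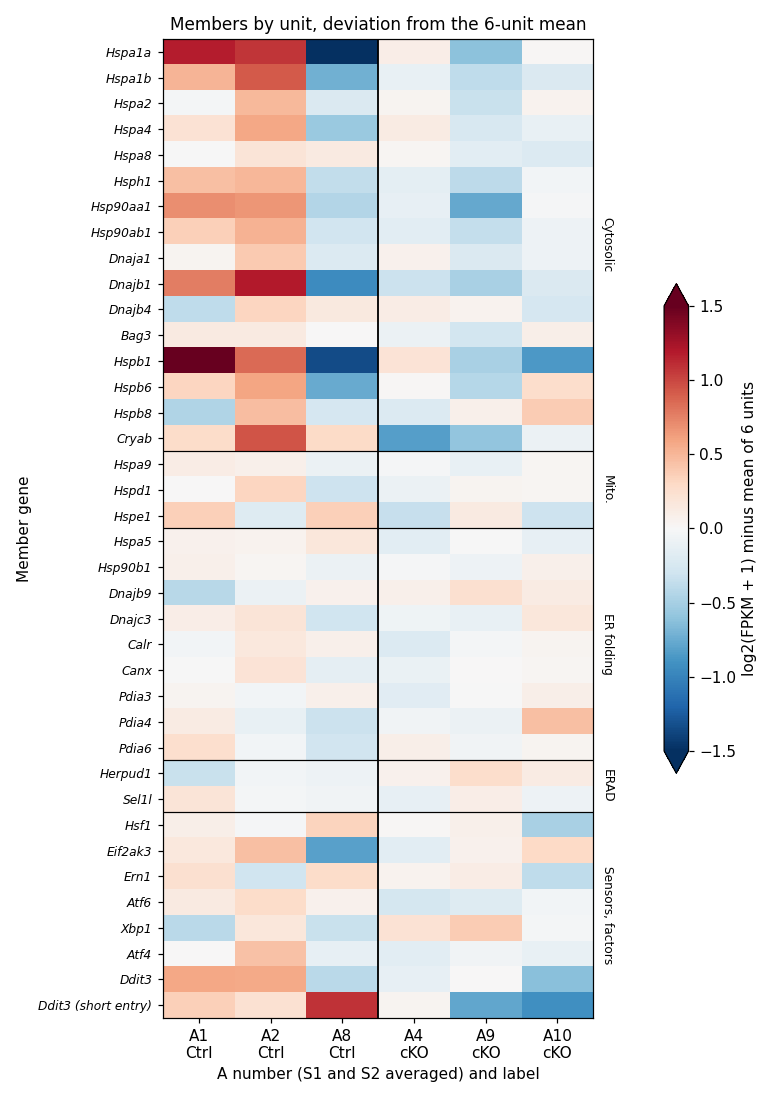
Deviation of log2(FPKM + 1) from the mean of the 6 units for each tested member (rows, grouped by class) in each unit (columns, labelled by A number and genotype), with colours ending at 1.5 in either direction. Most cytosolic rows are red in A1 and A2 and blue in A8, while ER rows are pale in all units.

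Set against each other, the cytosolic and ER sums differed most in A1 and A2. The cytosolic sum was 1.59, 1.78 and 1.13 times the ER sum in A1, A2 and A8, and 1.24, 0.962 and 1.13 times in A4, A9 and A10. A9 was the 1 unit in which the ER class was the larger. On the log2 scale the ratio was 0.56 ± 0.34 in Ctrl and 0.14 ± 0.18 in cKO (SD, n = 3 units), a difference of −0.42 for cKO against Ctrl, but A8 had the ratio of A10. The difference was −0.61 without A8 and −0.28 without A2. No test was made of this score over the members.

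The 2 degradation genes differed. Herpud1, a scaffold of the ER ubiquitin ligase complex on chromosome 8 from 95113066 to 95122005, stood at 16.8, 20.7 and 20.2 FPKM in Ctrl and at 22.4, 25.9 and 23.4 FPKM in cKO. All 3 cKO units were above all 3 Ctrl units. The log2 fold change was 0.30 ± 0.13 (SE), with a limma adjusted p of 0.658, and 0.34 without A8 with an adjusted p of 0.356. Sel1l, the partner of the ligase HRD1, had overlapping groups at 21.3 to 25.5 FPKM in Ctrl and 20.2 to 23.8 FPKM in cKO. Herpud1 and Dnajb9 were the 2 members higher at an unadjusted p under 0.05 when A8 was left out.

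Among sensors and factors, Atf4 was the most abundant, at 29.3, 39.95 and 26.7 FPKM in Ctrl and 26.0, 28.1 and 26.8 FPKM in cKO. A2 was high and the other 5 units were close. Atf6 stood at 6.75, 7.54 and 6.37 FPKM in Ctrl and at 4.88, 5.18 and 5.86 FPKM in cKO, without overlap, with a log2 fold change of −0.32 ± 0.15 (SE) and a limma adjusted p of 0.703 (−0.37 and 0.375 without A8). With the oligodendrocyte level in the fit, it was −0.037 (limma unadjusted p = 0.90). Xbp1 stood at 8.88, 13.8 and 9.34 FPKM in Ctrl and at 14.2, 16.1 and 11.8 FPKM in cKO, with A2 inside the cKO range, and had a log2 fold change of 0.38 (0.31 without A8). Gene-level FPKM does not separate its spliced form. The messages of the sensors PERK (Eif2ak3, 1.62 to 5.32 FPKM) and IRE1 (Ern1, 2.08 to 3.86 FPKM) and of Hsf1 (3.01 to 6.07 FPKM) were low, with overlapping groups. None of the 7 sensors and factors had an unadjusted p under 0.05 in limma, and their median estimate was −0.22. Without A8 the median was −0.24, and 1 (Ddit3) was lower at that threshold.

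Ddit3, which encodes the pro-apoptotic factor CHOP, occupied 2 rows of the table. The gene entry of 1713 bases stood at 11.6, 11.5 and 5.39 FPKM in Ctrl and at 6.75, 7.47 and 4.45 FPKM in cKO, with a log2 fold change of −0.50 ± 0.32 (SE). A8 lay within the cKO range, and without A8 the estimate was −0.82 with a limma adjusted p of 0.228. An entry of 105 bases with the same symbol overlaps it and gave −1.12 with an adjusted p of 0.453, but reads are shared between the 2 rows, so its value is uncertain and it is not counted among the members. With the FPKM of both rows summed, in which the shorter row weighs more per read, the log2 fold change was −0.95 ± 0.22 (SE), with a limma adjusted p of 0.344. The PERK targets were near 0. Trib3, a pseudokinase gene, had 4 and 12 reads in the A2 libraries, 2 reads in 1 A9 library and 0 in the other 9. Chac1, a glutathione-degrading enzyme gene, had 4 reads in 1 A1 library and 0 in the other 11. A library at 0 allows up to 3 reads, for counting error only and only if reads are independent counts.

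None of the mitochondrial chaperones separated the groups. Hspa9, the mitochondrial HSP70 mortalin, stood at 43.8, 42.7 and 38.1 FPKM in Ctrl and at 39.8, 37.5 and 41.4 FPKM in cKO. Hspd1 (HSP60) ranged from 27.7 to 43.5 FPKM and its co-chaperonin Hspe1 (HSP10) from 17.2 to 28.6 FPKM, with overlapping groups. The deposited coordinates of these neighbours overlap at their starts on chromosome 1, so their reads may be shared. The estimates were −0.066 for Hspa9 (−0.13 without A8), −0.019 for Hspd1 (−0.18 without A8) and −0.35 for Hspe1 (−0.25 without A8), and 0 of 3 had an unadjusted p under 0.05 in limma.

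**Figure D5:**
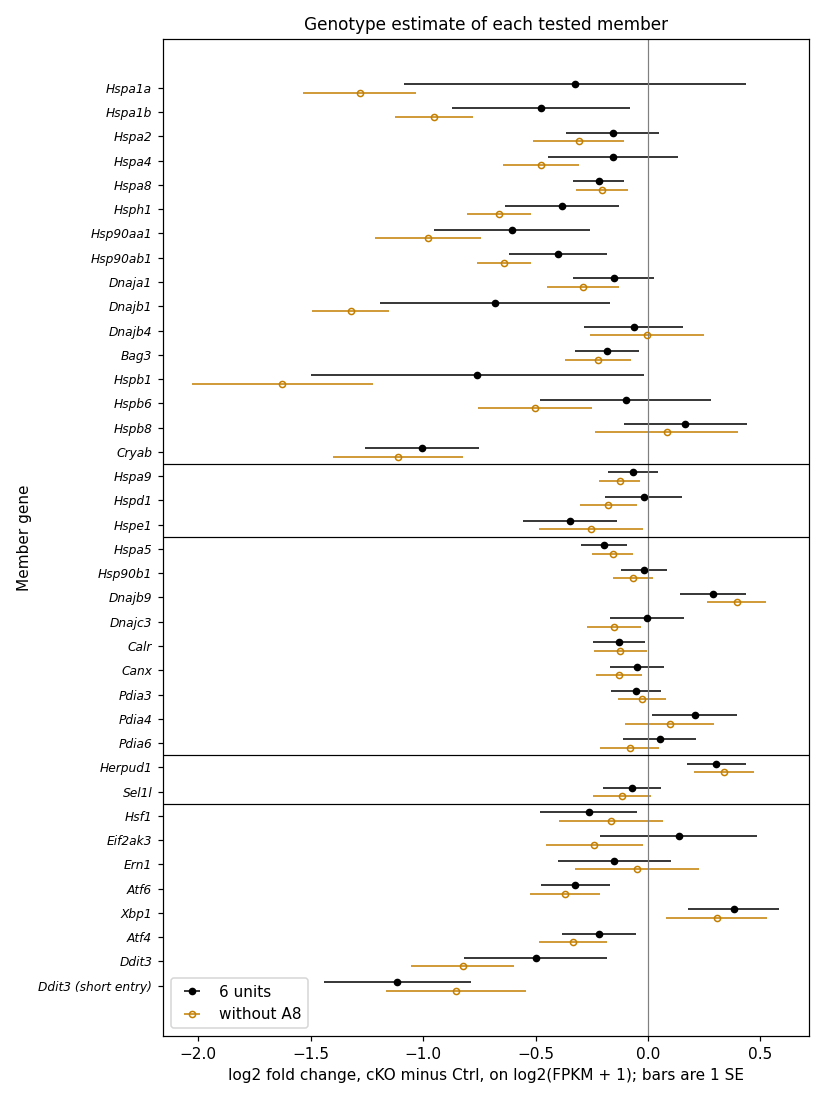
Log2 fold change of each tested member for cKO against Ctrl on log2(FPKM + 1), with bars of 1 SE, for all 6 units (filled) and without A8 (open). Cytosolic estimates lie mostly left of 0 and move further left without A8, whereas ER estimates lie between −0.19 and 0.29 with all units.

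Over all members, 0 of 37 passed the adjusted threshold with or without A8 in limma, and 0 of 37 did so with limma voom on the recovered reads. With all units 1 of 37 members was lower and 0 were higher at an unadjusted p under 0.05, against 4.71% and 2.97% of all tested genes. With voom 2 members were lower, and the share of all tested genes is not given. Without A8 10 of 37 were lower and 2 higher in limma, against 8.54% and 5.35%, so that the higher count is near the background. A8 was the lowest Ctrl unit for 24 of 37 members, and leaving it out by itself lowers their estimates. Estimates were below 0 for 30 of 37 members, with a median of −0.15. The smallest limma adjusted p of a member was 0.389 with all units and 0.129 without A8.

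Other genes of these pathways were read from 4 lists with 116 genes, of which 105 were tested. In limma 0 had an adjusted p under 0.05, and 3 were higher and 3 lower at an unadjusted p under 0.05, near the 2.97% and 4.71% of all tested genes. Without A8 these became 5 and 14, against 5.35% and 8.54%. Among other cytosolic chaperones (36 tested, 1 higher and 2 lower), the HSP90 co-chaperone gene Ptges3 stood at 68.9, 70.1 and 49.4 FPKM in Ctrl and at 48.2, 37.4 and 48.6 FPKM in cKO, with a log2 fold change of −0.47. Bag5, an HSP70 co-chaperone gene, had −0.60, and Hspa14, an HSP70-like gene, 0.56. Among other ER folding and degradation genes (34 tested, 2 higher and 0 lower), Derl2 of the ER dislocation machinery stood at 3.39, 4.05 and 3.71 FPKM in Ctrl and at 5.20, 6.23 and 5.31 FPKM in cKO, with a log2 fold change of 0.48. Selenos, which acts with the derlins, had 0.32, and Hyou1, an ER HSP70-like chaperone gene, −0.38. In the other unfolded protein and integrated stress response genes (27 tested, 0 higher and 1 lower), Map3k5 (the stress kinase ASK1) had −0.47, Creb3l1 −0.35 and Psat1, an enzyme gene of serine synthesis, −0.24. Of the 8 other mitochondrial chaperones and proteases, 0 were higher and 0 lower, with Clpp at 0.49, Grpel1 at −0.36 and Lonp1 at −0.23. The adjusted p of these 12 named genes was 0.551 to 0.861. Without A8 the 12 estimates kept their sign, with Hspa14 at 0.34, and their adjusted p was 0.170 to 0.662.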

How the data were processed

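The authors deposited FPKM values per gene for 12 libraries, with gene lengths and coordinates, made from 125-base paired reads of SMART-Seq V4 cDNA on a HiSeq 2500, per the labels' protocols. The submitters' processing notes name FastQC, STAR and featureCounts, without versions, and mm10 and GRCm38. Of 51948 identifiers shared with GENCODE M21, 2.774% had the same ends in GRCm38, so gene coordinates are the table's own, of unmatched build. FPKM was turned into log2(FPKM + 1), which understates changes of low genes, and S1 and S2 were averaged per A number. The 17586 rows whose mean reached 1 FPKM, each identifier apart, were tested with limma 3.58.1 in R 4.3.3 (lmFit, two-sided, eBayes with trend). P-values were adjusted after Benjamini and Hochberg and judged at 0.05. Reads were recovered from the steps between FPKM values, and 82.35% to 86.27% of values per library came out whole within 0.02. They give relative depth, and without molecular identifiers they are not independent molecules. Of whole values from 1 to 20 reads, 72.55% to 80.42% per library were even, which happens where both mates of a pair are counted.

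The 39 members and all lists were chosen with earlier results of these data known. Unit values are given for the highest member of each role, for members with an unadjusted p under 0.05 and for members whose unit ranges do not overlap. Values of other members were added after the values, including those without A8, were seen. From each pathway list the 3 genes with the smallest p were named. The level of 1 marker gene is not reported here. S1 and S2 numbers were checked as a block: their S2 minus S1 differences correlated at 0.133 to 0.189 between the A numbers (15 pairs), and the labels do not say what an S number is. Motifs were searched on both strands of RefSeq windows. Alternatives were other pseudocounts, filters and scalings, each unit left out, models of the 12 libraries, list levels as covariates, array weights and voom on recovered reads.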

Additional observations from a re-analysis of the deposited data

How the results depend on the processing

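Under 25 alternatives 0 of the 37 members had an adjusted p under 0.05. Over all genes 0 passed, except 1 when A1 was left out (range over units left out 0 to 1), 112 with the 12 libraries as observations and the A number as a random effect, and 80 with the replicate block of S number added to that model. These 2 models gave all genes 1 common correlation between libraries of an A number (0.915, and 0.924 with the block). They count 12 libraries over 6 units, so their p-values may be too small and these calls are not read as genotype differences. In the same 2 models the members lower at an unadjusted p under 0.05 numbered 5, and 6 with the replicate block, against 1. They numbered 3 on TPM, 8 with array weights, 2 with voom, 3 with the immediate-early level as covariate, 2 with rows of a symbol summed, 10 without A4 and A8, and 1 to 10 with each unit left out (2 without A2, 10 without A8). Of all 17586 tested genes, 934 were lower at that threshold with the immediate-early level as covariate, and 8.54% without A8. The shares in the other settings are not given, so these counts are not read as a result about the members.

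Of 498 estimates for 19 named members and the short Ddit3 entry under these alternatives, 24 changed sign and 0 passed the adjusted threshold. With the oligodendrocyte level as covariate, whose values do not overlap between the labels, the log2 fold change became 0.26 for Hsp90ab1, 0.44 for Hsp90aa1, 0.92 for Dnajb1, 0.60 for Hspa1b, 1.93 for Hspa1a, 0.39 for Hsph1, 0.42 for Hspb1, 0.47 for Hspa4, 0.23 for Canx, 0.13 for Hspa9 and 0.087 for Atf4. With the immediate-early level as covariate it became 0.017 for Dnajb1, 0.055 for Hspa1b, 0.78 for Hspa1a, 0.17 for Hspb1, 0.22 for Hspa4, 0.027 for Canx and 0.015 for Hspa9, and with upper quartile scaling 0.031 for Canx and 0.012 for Hspa9. With each unit left out, it ranged from −1.28 (without A8) to 0.18 (without A1) for Hspa1a, from −0.47 (without A8) to 0.093 (without A2) for Hspa4 and from −0.13 (without A8) to 0.044 (without A2) for Canx. The Tnfrsf1b difference ranged from −0.0092 FPKM without A4 to 0.061 FPKM without A9. The cause of these changes was not tested. The log2 difference between the cytosolic and ER sums kept its sign with each unit left out, and with mean log2 levels in place of sums. Its value with the list levels as covariates is not given. Members without overlap numbered 6 lower and 3 higher without A1 (11.7% and 10.9% of all tested genes), 6 and 4 without A2 (11.6% and 10.8%), 5 and 2 without A9 (9.91% and 9.87%), and 16 and 2 without A8 (19.6% and 13.7%). The alternatives with rows of a symbol summed, with A4 and A8 left out, and the counts without overlap were added after the data were seen.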
